A study of Homo sapiens with 4 samples.

Results

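The ligands, receptors and target genes of the Notch pathway were followed in berberine-treated and untreated cells that the labels name as HepG2, a human hepatocellular carcinoma line. The gene set was assembled around JAG1, which had been picked for its higher signal with berberine, and the other members were added for their place in the pathway. Members were found by matching 10 gene symbols to the gene names of the array's probes. The match gave 6 probes for 5 genes, namely JAG1, JAG2, DLL1, DLL4 and HES1, out of 17778 genes named on the array. No probe carried the symbol NOTCH1, NOTCH2, NOTCH3, NOTCH4 or HEY1, so the 4 receptors and that target were not analysed here.

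Total RNA, labelled with Cy5, was measured on 4 one-colour arrays. The 2 berberine samples had 26.95 µM of this plant alkaloid for 24 hours, and the 2 control samples had none. All were grown in DMEM with serum and antibiotics, per the labels' protocols. The description field of the labels disagrees, naming a differentiation, abbreviated MDI, for 48 hours and a berberine dose of 13.47 µM. This conflict touches the cells as well as the dose and time, and which account is right could not be settled. The labels do not say that the samples of a group came from separate cultures, so their spread may be technical.

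All 26423 probe identifiers carry the prefix of a mouse array. Each value below is thus what a mouse probe with that gene's name read, and how well it follows the human transcript is unknown. Probes named for olfactory receptor genes, which liver cells are not known to use, served as a gauge of background, with a median level of 6.05 and a 95th percentile of 9.24 on the log2 scale. All levels below are log2(quantile normalized intensity + 1) unless they are called deposited intensities. The number of arrays limits the precision. Of 16 hepatocyte markers 13 had a probe, and 1 of these, RBP4, the retinol carrier of plasma, had a mean above 9.24. The probe of ALB, which encodes albumin, had a mean of 8.35 and that of AFP, alpha-fetoprotein, which HepG2 cells are known to secrete, a mean of 4.75. Most of the defining markers of the labelled cell type were thus within the background range on this array. The species and identity of the cells are taken from the labels, and with the mouse probes, the conflicting description field and these dim markers the arrays alone do not settle them.

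Notch signalling passes between touching cells. A ligand of the Jagged or Delta-like family on one cell binds a Notch receptor on its neighbour, a metalloprotease and then the gamma-secretase complex cut the receptor, and the freed intracellular domain enters the nucleus, where it turns the DNA-binding protein RBPJ and its Mastermind-like partners from repression to activation. HES1 and HEY1, both basic helix-loop-helix repressors, are among the best known genes switched on in this way. In the developing liver, JAG1 directs the formation of bile ducts, and loss of one JAG1 copy is the usual cause of Alagille syndrome.

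The sequences before the gene starts of JAG1 and HES1 are shown because JAG1 had the outstanding value among the members and HES1 was the one measured target. Both are the 250 bases before the start, from RefSeq on GRCh38.p14, given 5′ to 3′ along the gene. JAG1 lies on the minus strand, with its window at chr20:10674000-10674249, and HES1 on the plus strand, with its window at chr3:194135898-194136147. Capitals mark the core motif of RBPJ, TGGGAA, searched on both strands.
JAG1: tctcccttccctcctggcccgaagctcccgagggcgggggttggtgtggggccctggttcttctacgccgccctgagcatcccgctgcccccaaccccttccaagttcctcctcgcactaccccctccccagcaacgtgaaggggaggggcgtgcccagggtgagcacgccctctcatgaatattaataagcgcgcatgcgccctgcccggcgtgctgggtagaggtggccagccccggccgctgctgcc
HES1: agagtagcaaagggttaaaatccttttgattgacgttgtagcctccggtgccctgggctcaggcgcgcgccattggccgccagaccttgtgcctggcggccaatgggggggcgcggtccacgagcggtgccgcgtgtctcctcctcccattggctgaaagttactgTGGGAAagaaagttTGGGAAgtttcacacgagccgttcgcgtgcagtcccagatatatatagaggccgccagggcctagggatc

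The HES1 window held 2 matches to the RBPJ core, both on the gene's strand, beginning at -84 and -70 counted from the gene start. The JAG1 window held 0. Over all 35116 RefSeq windows of this length, 20.8% held the motif on either strand. The N box, CACNAG, to which HES1 itself is known to bind, was also searched on both strands and matched at 3 places in the HES1 window and 0 in that of JAG1, and 32.0% of all windows held it. No match overlapped one of the other motif. These are matches of letters, and the arrays did not measure binding. The windows are human, the species that the labels give, while the probes carry mouse-array names. Whether these are the promoters of the transcripts that the probes read is thus not settled.

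JAG1 was the only member with a signal far above the gauge of background, and its signal was several-fold higher with berberine. Its single probe had deposited intensities of 15898 and 18845 in berberine samples 1 and 2, against 3737 and 3168 in control samples 1 and 2. Both berberine values lay above both control values. After normalization the levels were 14.11 and 14.14 with berberine, against 11.65 and 11.64 in controls. Samples of one group differed by far less than the groups did.

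The mean JAG1 level was 14.12 ± 0.02 in berberine samples and 11.65 ± 0.01 in controls (SD, n = 2 in each group), a log2 fold change of 2.48 or 5.56-fold. Because JAG1 was chosen for this difference, it is given as a description, with no p-value. Among 17778 genes its level ranked 27 and 26 in berberine samples 1 and 2, against 225 and 224 in control samples 1 and 2. By size of rise it ranked 10 of all genes. Both groups lay above the olfactory receptor 95th percentile. Some olfactory receptor probes exceed that level too, so it cannot exclude background signal for a single probe. With values as deposited the log2 fold change was 2.33, and with median centring 2.22.

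**Figure D1:**
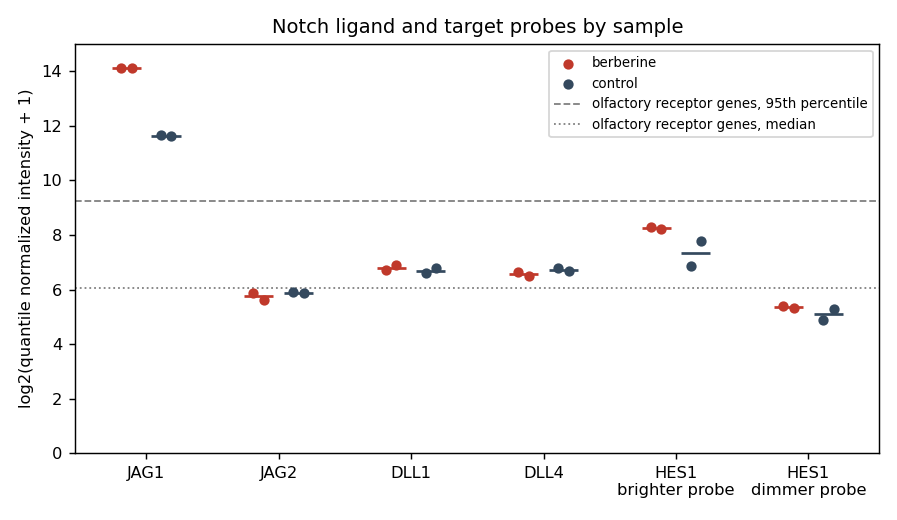
Levels of the 6 probes of Notch ligands and of HES1, as log2(quantile normalized intensity + 1), with 1 point for each of the 2 berberine and 2 control samples and a bar at each group's mean. JAG1 is the one gene above the dashed line (olfactory receptor 95th percentile, 9.24), and its berberine samples sit at 14.11 and 14.14 against 11.65 and 11.64 in controls.

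The other ligands were dim and differed little between the groups. JAG2, the second Jagged ligand, had deposited intensities of 58 and 54 in berberine samples, against 69 and 42 in controls. These ranges overlapped. Its normalized mean level was 5.75 ± 0.17 with berberine and 5.89 ± 0.01 in controls (SD, n = 2 in each group), with the berberine values just below the control values. This made a log2 fold change of -0.14 (SE 0.136, limma adjusted p = 0.693), and it turned to 0.054 with values as deposited, so no direction can be given for JAG2.

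DLL1, a Delta-like ligand with roles in early development, had deposited intensities of 97 and 124 in berberine samples, against 108 and 92 in controls, and the groups overlapped. Its level was 6.80 ± 0.12 with berberine and 6.69 ± 0.14 in controls (SD, n = 2 in each group), a log2 fold change of 0.11 (SE 0.138, limma adjusted p = 0.749). DLL4, the Delta-like ligand best known from sprouting blood vessels, had deposited intensities of 96 and 95 with berberine, against 126 and 83 in controls, with the berberine values inside the range of the controls. Its level was 6.58 ± 0.11 with berberine and 6.73 ± 0.08 in controls (SD, n = 2 in each group), a log2 fold change of -0.15 (SE 0.124, limma adjusted p = 0.641). The normalized values of DLL4 did not overlap, at 6.66 and 6.50 with berberine, against 6.79 and 6.68 in controls, but the nearest of them were almost equal. The means of JAG2, DLL1 and DLL4 over all samples all lay below 9.24, within the range of the olfactory receptor genes, and a difference in the human transcripts may not be detectable at such signals.

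HES1, the repressor that serves as a standard readout of Notch activity, read higher with berberine on its brighter probe, but the control samples differed widely and the test was not passed. That probe had deposited intensities of 269 and 306 in berberine samples, against 135 and 208 in controls. The groups did not overlap. The normalized levels were 8.28 and 8.23 with berberine, against 6.88 and 7.79 in controls, so most of the spread came from the controls. HES1 thus had a log2 fold change of 0.92 or 1.89-fold (SE 0.34, limma adjusted p = 0.387). It was 0.46 without control sample 1 and 1.38 without control sample 2, and 0.66 with median centring.

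The dimmer HES1 probe had deposited intensities of 47 and 44 in berberine samples, against 39 and 22 in controls. The berberine values were again the higher ones, with a level of 5.36 ± 0.06 against 5.09 ± 0.28 (SD, n = 2 in each group). Its log2 fold change was 0.26 (SE 0.181, limma adjusted p = 0.615 with each of 26423 probes as its own row). Both probes had means below 9.24.

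Of the 4 measured members other than JAG1, 0 passed the limma test across all genes at an adjusted p of 0.05. In this main fit 0 of them had an unadjusted p under 0.05, against 13% of all genes. HES1 was near that line, with an unadjusted limma p of 0.0532, and under it in some other settings, such as 0.0329 with an intensity trend. At the adjusted threshold 9 of all 17778 genes passed, or 0.0506%, and 8 of them were higher, or 0.045%. JAG1 is among these 9 because it was picked from them, which is no evidence of its own. In 4 members the normalized groups did not overlap, JAG1 and HES1 higher and JAG2 and DLL4 lower, where 45% of all genes had groups apart. With the contrast already used to choose JAG1, nothing is read from these counts. The median log2 fold change was 0.11 over the 5 members and -0.01 over all genes.

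**Figure D2:**
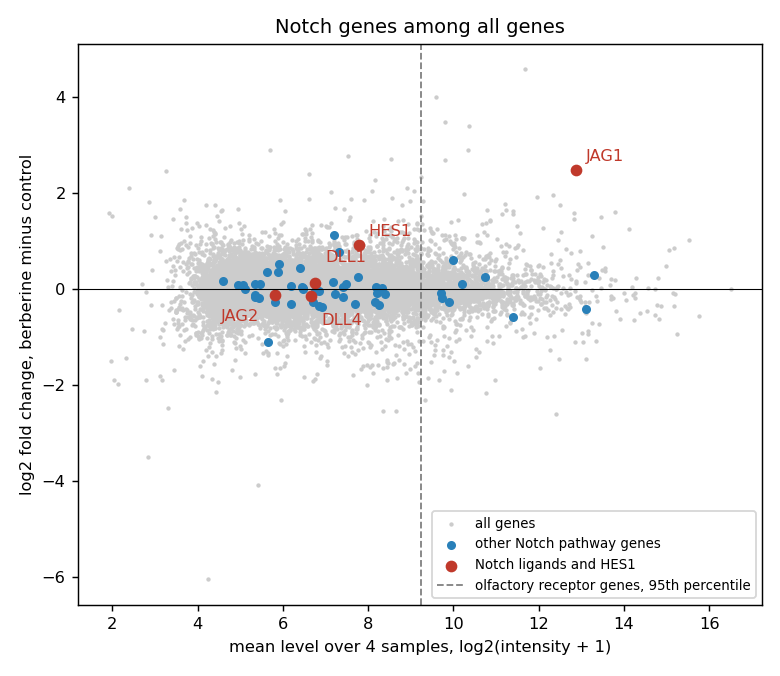
The log2 fold change (berberine minus control) of each of 17778 genes (grey), of 49 other Notch pathway genes (blue) and of 5 members (red), against the mean level over the 4 samples. JAG1 stands at a mean of 12.88 and a log2 fold change of 2.48, while JAG2, DLL1, DLL4 and HES1 lie left of the dashed line at 9.24.

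The wider pathway was examined with a list of 57 further genes, of which 49 had a probe. In the main test 0 of them passed, and 8 had an unadjusted limma p under 0.05, against 13% of all genes. In limma's fit with an intensity trend, a variance model that lets the spread depend on signal, 1 of the 49 passed and was higher, against 1.46% of all genes. Their median log2 fold change was -0.0038, against -0.0091 for all genes, and 9 of the 49 had a mean above 9.24. With berberine above control the groups were apart for 10 of them, against 21.7% of all genes, and with berberine below control for 14, against 23.3%.

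The gene that passed the fit with an intensity trend was ITCH, a ubiquitin ligase known to mark Notch receptors for breakdown. Its levels were 7.72 and 7.80 in berberine samples, against 6.51 and 6.78 in controls. ITCH had a log2 fold change of 1.11 or 2.17-fold (limma adjusted p = 0.0428 with the trend, 0.131 without). Its mean of 7.20 lay below 9.24. ITCH also passed with a pseudocount of 50 (limma adjusted p = 0.0385). With any 1 of the 4 samples left out of the fit with the trend, its log2 fold change was between 0.98 and 1.25, while 0 of 17778 genes, ITCH included, passed. Of the other 7 genes of Notch turnover and its brakes, among them NUMB and the Deltex family, 0 passed either fit.

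The genes with the smallest p-values in the nuclear and repressor complexes were both bright and read slightly lower with berberine. MAML1, a Mastermind-like coactivator of the Notch complex, had levels of 11.19 and 11.02 in berberine samples, against 11.78 and 11.59 in controls, a log2 fold change of -0.58 (SE 0.138, limma adjusted p = 0.271). CTBP1, a corepressor recruited by the silent RBPJ complex, had levels of 12.93 and 12.87 with berberine, against 13.34 and 13.29 in controls, a log2 fold change of -0.41 (SE 0.108, limma adjusted p = 0.304). The groups did not overlap for either gene. Neither passed the main test or the fit with the trend. Both passed when the test was confined to the 1626 genes with a mean above 9.24 (limma adjusted p = 0.0316 for MAML1 and 0.0236 for CTBP1), where 434 genes passed. Among the 6 genes of the nuclear complex and the 8 of the repressor complex that were measured, 0 passed the main test, and the median log2 fold changes were -0.01 and -0.27.

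In the groups of further ligands, ligand uptake, sugar transferases and proteases, 0 genes passed the main test or the fit with the trend. DLL3, a divergent Delta-like ligand that is known to act against Notch signalling in the same cell, had levels of 5.15 and 5.04 in berberine samples, against 6.28 and 6.14 in controls. Its log2 fold change was -1.11 (SE 0.121, limma adjusted p = 0.112, and 0.0618 with the trend), on a probe with a mean of 5.65, below the olfactory receptor median. PSEN2, a catalytic subunit of gamma-secretase, had levels of 7.93 and 7.48 with berberine, against 7.003 and 6.877 in controls, a log2 fold change of 0.77 (SE 0.197, limma adjusted p = 0.295). MIB1, a ubiquitin ligase that drives the uptake of bound ligand, was bright at a mean of 13.29, with a log2 fold change of 0.29 (SE 0.14, limma adjusted p = 0.459). MFNG, a Fringe enzyme that adds sugars to Notch receptors, had a log2 fold change of -0.36 (SE 0.202, limma adjusted p = 0.529).

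Further targets were measured for 5 of 8 genes, and 0 passed either fit. NRARP, a feedback inhibitor that Notch activity is known to induce, had levels of 6.15 and 6.19 in berberine samples, against 5.65 and 5.66 in controls. Both berberine values were above both controls, with a log2 fold change of 0.52 (SE 0.106, limma adjusted p = 0.242), on a probe whose mean of 5.91 was below the olfactory receptor median. Among biliary genes linked to Notch in liver, 4 of 5 were measured and 0 passed. KRT7, a keratin of bile duct cells, had levels of 8.22 and 7.98 with berberine, against 8.44 and 8.42 in controls, a log2 fold change of -0.33 (SE 0.135, limma adjusted p = 0.407).

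**Figure D3:**
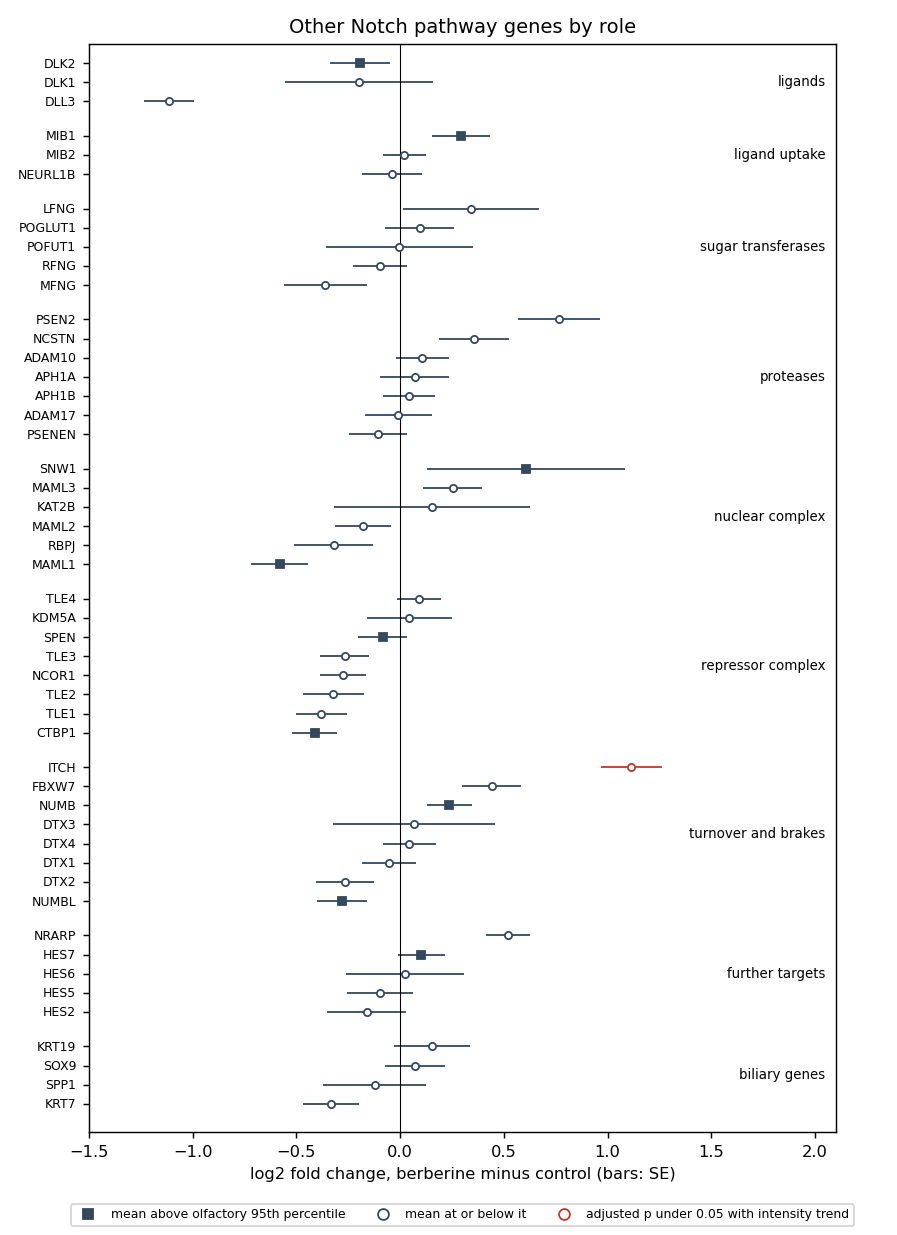
The log2 fold change (berberine minus control, bars are the SE of the main limma fit) of 49 Notch pathway genes that are not among the members, grouped by role. Filled squares are the 9 genes with a mean above 9.24, and the red circle is ITCH at 1.11, the 1 gene that passed limma's fit with an intensity trend.

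To see which genes ran most like JAG1, the genes with means above 9.24 were ranked by the root mean square difference from JAG1 over the 4 samples, each gene centred on its own mean. The nearest was VGF, a secreted neuropeptide precursor known as a growth factor response gene, at a difference of 0.211 on the log2 scale. VGF had levels of 11.13 and 11.16 in berberine samples, against 8.73 and 8.20 in controls. Next came CHD2, a chromatin remodeller, at 0.257, and LIF, a cytokine of the interleukin-6 family, at 0.269.

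PLK3, a stress-responsive kinase, followed at 0.272 and FOXP1, a forkhead transcription factor, at 0.329. In each of these 5 genes both berberine values lay above both control values, and CHD2, PLK3 and FOXP1 were 3.91-fold, 3.85-fold and 3.75-fold higher with berberine. No fold is given for VGF and LIF, whose control means of 8.47 and 8.89 lay inside the background range and whose overall means were above 9.24 only through the berberine samples. The control mean of CHD2 was 9.26, at the edge of that range, so its fold may rest partly on background signal. The ranking selects genes by the same 4 arrays, so it describes these samples and is no test. Groups apart and several-fold rises in these genes follow from their choice by likeness to JAG1. Of all genes, 21.7% had groups apart with berberine higher.

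**Figure D4:**
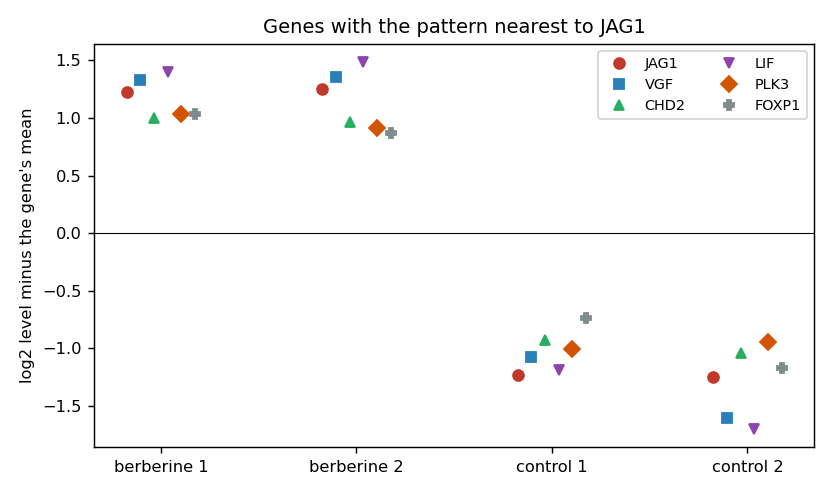
Level of JAG1 and of the 5 genes nearest to it in each of the 4 samples, as the log2 level minus the gene's own mean. The JAG1 points lie at 1.22 and 1.25 in berberine samples and at -1.23 and -1.24 in controls, and the other genes keep the same sides.

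Signals of marker lists were compared beside the JAG1 difference. The summed intensity of the 13 measured hepatocyte markers was 8019 and 9639 in berberine samples, against 17740 and 16631 in controls, most of it from RBP4. RBP4 and FGG, the fibrinogen gamma chain, were the 2 of 13 hepatocyte markers that passed the fit with the trend, against 1.46% of all genes. Both were lower, at log2 fold changes of -1.08 and -1.77 (limma adjusted p = 0.0250 and 0.0163 with the trend). That share counts both directions, and 89 of all 17778 genes passed this fit as lower. The FGG probe had a mean of 5.88, below the olfactory receptor median. The dimmer RBP4 probes had log2 fold changes of -0.15 and -0.22 (limma adjusted p = 0.650 and 0.592 with each probe as its own row). Over the 13 markers the median log2 fold change was -0.19. The groups were apart with berberine below control for 4 of the 13, against 23.3% of all genes. They were apart with berberine above control for 1, APOA1 at a log2 fold change of 0.24, against 21.7% of all genes. The 8 endothelial markers, a cell type rich in Jagged and Delta-like ligands, summed to 1576 and 1650 with berberine, against 1575 and 1848 in controls, with 0 of the 8 above 9.24. The 6 measured cholangiocyte markers summed to 801 and 714, against 886 and 896 in controls, also with 0 above 9.24. In the adipocyte list, which bears on the differentiation named in the description field, 2 of 11 markers had means above 9.24. Their sums were 2352 and 3331 with berberine, against 2635 and 4260 in controls, and 0 of the 11 passed the main test or the fit with the trend. Single adipocyte markers went both ways, from FABP4 at a log2 fold change of 1.00 to RETN at -1.20, on probes with means of 6.52 and 6.49. The median of the list was -0.06. The 8 measured fibroblast markers summed to 565 and 551 in berberine samples, against 472 and 476 in controls. The 5 macrophage markers summed to 978 and 910 with berberine, against 873 and 793 in controls. Both sums were higher with berberine, but the median log2 fold changes of these lists were -0.05 and -0.01. POSTN had the largest rise among the fibroblast markers, with levels of 7.80 and 7.76 with berberine, against 6.65 and 6.99 in controls. CD14 had the largest among the macrophage markers, at 9.01 and 8.98 with berberine, against 8.67 and 8.52 in controls. The 5 lymphocyte markers summed to 1077 and 1096 with berberine, against 1538 and 2613 in controls, and the 4 smooth muscle markers to 554 and 494, against 509 and 522 in controls. In these 4 lists 0 markers had a mean above 9.24. The part of these markers in the JAG1 difference was not tested.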

How the data were processed

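The deposited values are intensity readings on a linear scale, whole numbers for 26423 probes in each of 4 samples. How the authors scanned the arrays, corrected the background and normalized the values is not given in the sources used here. Median intensities were 77 and 85 in berberine samples 1 and 2, against 90 and 62 in control samples 1 and 2, and 1, 11, 0 and 269 values were below 0, in the same order. The log2 medians spanned 0.53, so quantile normalization was run over all probes, followed by a floor at 0 and the transform log2(value + 1). Fold changes of dim genes depend on the constant added. With a pseudocount of 50 in place of 1 the log2 fold change of DLL3 was -0.56, against -1.11. How far fold changes at such signals depart from those of the transcripts was not tested. The platform annotation gave 20377 probes 1 gene symbol each and 0 probes several, and the other 6046 stayed out of the test by gene, where the probe with the highest mean stood for its gene. Testing used limma 3.58.1 under R 4.3.3, with lmFit and eBayes (no trend, no block) on the 4 samples. P-values are 2-sided and Benjamini-Hochberg adjusted over 17778 genes, with 0.05 as the threshold. The residual degrees of freedom were 2, and no exact permutation p for a single gene can be under 0.333 in this design. The fit was also run on simulated data with independent noise, which may differ from the spread of these samples, and no result here rests on that run. Plots were made in Python 3.11.15 with matplotlib 3.10.9.

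Members, lists and tests were chosen with earlier results of these data known. Named were all members, in each role group the genes past the threshold with or without an intensity trend (the smallest p where there was none) and the 5 genes nearest to JAG1. ALB, AFP, APOA1, RBP4, FGG, FABP4, RETN, POSTN, CD14, NUMB, APH1B, DLK1 and TLE1 were named after their values were seen. The alternatives were other normalizations, filters, pseudocounts, variance models and probe rules, the replicate number as a block, and each sample left out. Same-numbered samples showed a correlation of 0.09 between their deviations from the group means, so the numbers were not taken to pair them. Across genes the levels correlated at 0.9728 between the berberine samples and at 0.9652 between the controls. Control sample 2 and berberine sample 2 reached 0.9661, so by this measure control sample 2 was no nearer to its own group.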

Additional observations from a re-analysis of the deposited data

How the results depend on the processing

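The log2 fold change of JAG1 was 2.48 and stayed between 2.22 and 2.49 over all settings, with 2.33 for values as deposited, 2.22 with median centring and 2.46 with a pseudocount of 50. JAG2 was -0.14 and turned to 0.054 with values as deposited. DLL1, DLL4 and HES1 kept their direction and did not pass under any setting that measured them (the limit to genes above the olfactory receptor 95th percentile left them out), and HES1 ranged from 0.46 to 1.38 (limma adjusted p from 0.153 to 1.00). The count of members past the threshold was 1, which is JAG1, chosen for this contrast, so that the count is given for completeness and supports nothing. It was 0 with values as deposited, median centring, each probe as its own row, the replicate block and without any 1 sample, with or without the trend. The count of other Notch pathway genes was 0, and it was 1 with a pseudocount of 50, 1 with the trend and 2 among genes above the olfactory receptor 95th percentile. Over all genes the count was 9, against 2 with values as deposited, 138 without the dimmest 30%, 434 among genes above that percentile, 251 with a pseudocount of 50 and 260 with the trend. It was 0 with median centring, with each probe as its own row, under the replicate block, and without any 1 sample with or without the trend, where limma's unadjusted p was under 0.05 for 2247 genes, 3101 probes, 1878 genes and 1312 to 3098 genes. The trend with a sample left out was chosen after seeing the data. With 1 sample left out, the lone sample is assumed to vary like the other group. What caused these changes was not tested.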

Other observations

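For 7 Notch genes, counting HES1, a pair of probes was on the array. The log2 fold changes of a gene's 2 probes had the same sign in 4 of the 7. NUMB, an adaptor known to oppose Notch in dividing cells, had a bright probe at a level of 10.74 with a log2 fold change of 0.24 and a dim one at 4.95 with 1.04. The pairs of APH1B, DLK1 and TLE1 had opposite signs, with values of 0.04 and -0.27 for APH1B, -0.20 and 0.36 for DLK1, and -0.38 and 0.03 for TLE1. JAG1 had a single probe, and there was no other to set beside it.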
